A study of Homo sapiens with 7 samples.

Results

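The S100 calcium-binding proteins were followed on 7 microarrays of NCI-H520, a long-established human line of lung squamous carcinoma, in which single deadenylases had been silenced. The members were 10 genes, S100A1, S100A2, S100A4, S100A6, S100A8, S100A9, S100A10, S100A11, S100A14 and S100P, out of 19062 named genes with a probe, and every one of their 12 probes was used. The family was chosen by the scaled signal of a probe of S100A1, which was lower on the CNOT6L, CNOT7 and NOC shRNA arrays, so the values of S100A1 are given below as a description and were not tested. All cells carried 6 µg of a pLKO.1 plasmid delivered in liposomes, were under 6 µg/mL puromycin from 12 h and were harvested at 72 h. Each of the 7 groups had 1 array. The controls were the empty vector and a non-target shRNA, and the other arrays held cells with an shRNA to PARN, CNOT6, CNOT6L, CNOT7 or NOC (nocturnin, gene symbol NOCT). The labels give the CNOT6L and NOC shRNAs the same target accession, that of NOC. Nothing in the labels describes a second culture of any group, so the arrays have no replicate check, and wild-type cells were not analysed here.

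S100 proteins are small proteins with a pair of EF hands, the loops that bind calcium, and most work as dimers that change shape with calcium and then bind a partner. Inside cells they act on the cytoskeleton, on membrane-bound annexins and on ion channels, and several are also secreted and bind receptors such as AGER and TLR4. Most of the genes lie side by side in the epidermal differentiation complex on chromosome 1, and in squamous epithelia several members change with differentiation. Deadenylases shorten the poly(A) tail of mRNA, an early step of mRNA decay.

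All values are log2 processed signals less the 75th percentile of their own array, so that 0 is a signal at that percentile. A probe counted as above background where the scanner software marked 50% or more of its spots so, and a change was called where both control arrays lay at least 2-fold (1 on the log2 scale) away on the same side. Of the 42405 gene probes, 82.0% (non-target) to 91.5% (empty vector) were above background, and the 75th percentile of signal ran from 1366 (CNOT6 shRNA) to 3986 (CNOT7 shRNA). The empty vector, non-target, PARN and CNOT6 arrays lay in row 1 of the slide and the CNOT6L, CNOT7 and NOC arrays in row 2. For these last arrays slide row and shRNA cannot be told apart. All were scanned together, but signals of the NOC array were extracted from its image on a later day. Each targeted mRNA was at its lowest of the 7 arrays on its own shRNA array. These levels lay between 45.8% (PARN) and 89.6% (CNOT6) of the mean of both controls. Where a gene had several probes, the brightest was read. Only PARN was at least 2-fold below both controls. NOC mRNA differed by -0.22 from the non-target array and -0.64 from the empty vector on the log2 scale, and CNOT6 mRNA by -0.11 and -0.21. Of 8 squamous markers, SOX2, KRT6A, PKP1 and DSC3 were above background on all arrays. The other four, TP63, KRT5, KRT14 and DSG3, were above background on 2, 4, 1 and 1 of the 7 arrays.

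The start sites of 4 members held the exact word TATAAA, 3 others were rich in CpG, and S100A1, S100A2 and S100A14 had neither feature. Near variants of the word, such as tataag before the starts of S100A14 and S100A6, were not counted. RefSeq promoters (build GRCh38.p14, 250 bases before to 50 after the annotated start) were found for all 10 genes, 9 on chromosome 1 and S100P on chromosome 4. The word TATAAA began 25 to 35 bases before the start, on the gene's own strand, in 4 of the 10 genes, against 2.17% of all 35116 promoters. These were S100A4, S100A8, S100A9 and S100P, for S100A8 at 1 of its 3 listed starts. The 50 bases before and 10 bases after the start are shown for the 3 of these on chromosome 1, with TATAAA in capitals.
S100A9 (chr1:153357804-153357863, plus strand): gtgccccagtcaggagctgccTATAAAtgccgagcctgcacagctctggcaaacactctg
S100A8 (chr1:153391064-153391123, minus strand): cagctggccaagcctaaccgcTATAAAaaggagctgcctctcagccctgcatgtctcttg
S100A4 (chr1:153545797-153545856, minus strand): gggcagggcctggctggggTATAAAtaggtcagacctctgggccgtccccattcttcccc

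The promoters of S100A6, S100A10 and S100A11 held 31, 32 and 22 CpG dinucleotides, against 2 to 8 in the other members and a median of 14 over all promoters. A count of 20 or more was reached by 3 of the 10 members and by 41.2% of all promoters. GGGCGG, the core of the GC box, was found on either strand in these 3 genes and in S100A9, and in 45.0% of all promoters. TGANTCA, the shape of an AP-1 site, was found in 1 member, S100A2, at 1 of its 2 starts, and in 7.71% of all promoters. TATAAA anywhere and on either strand was found in 11.5% of them. None of these 3 words overlapped another in a member. The full promoters of S100A1, on which the family was chosen, and of S100A14 and S100P, whose levels followed a like order over the arrays, are printed next, again with TATAAA in capitals. S100P alone among them held any of the 3 words, at 28 bases before its start.
S100A1 (chr1:153628184-153628483, plus strand): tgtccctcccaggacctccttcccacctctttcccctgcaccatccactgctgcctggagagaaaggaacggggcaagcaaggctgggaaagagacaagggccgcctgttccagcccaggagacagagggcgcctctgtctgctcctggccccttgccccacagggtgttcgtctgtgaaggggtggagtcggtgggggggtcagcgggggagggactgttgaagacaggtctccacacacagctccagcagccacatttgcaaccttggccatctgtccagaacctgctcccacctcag
S100A14 (chr1:153616276-153616575, minus strand): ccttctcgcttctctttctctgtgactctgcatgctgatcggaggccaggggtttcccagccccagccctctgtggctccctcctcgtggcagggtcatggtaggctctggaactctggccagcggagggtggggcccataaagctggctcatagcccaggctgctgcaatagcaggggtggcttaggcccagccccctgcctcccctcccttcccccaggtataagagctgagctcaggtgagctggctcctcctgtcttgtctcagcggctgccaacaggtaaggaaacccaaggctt
S100P (chr4:6693628-6693927, plus strand): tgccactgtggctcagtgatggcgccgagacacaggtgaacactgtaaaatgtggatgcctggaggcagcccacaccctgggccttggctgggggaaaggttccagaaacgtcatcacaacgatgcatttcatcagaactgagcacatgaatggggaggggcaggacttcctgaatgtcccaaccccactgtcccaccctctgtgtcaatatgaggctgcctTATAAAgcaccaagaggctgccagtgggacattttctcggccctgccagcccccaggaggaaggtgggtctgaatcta

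With the exception of 1 probe of S100A1, no S100 member was called with any shRNA, and S100A2, S100A4 and S100A6 had the smallest ranges of the members. Over all probes a single shRNA gave lower calls for 0.299% to 1.27% and higher calls for 0.328% to 0.547%. At such shares few calls would be found among any 12 probes. Of the 12 member probes, 9 were above background on all arrays, and 6 of these 9 had a range under 1 on the log2 scale. Over all 33815 probes above background on every array the median range was 0.72 and the 95th percentile 1.84, so a range under 1 was common. That of S100A6, 0.69, was near the median. No member probe was saturated on any array.

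**Figure D1:**
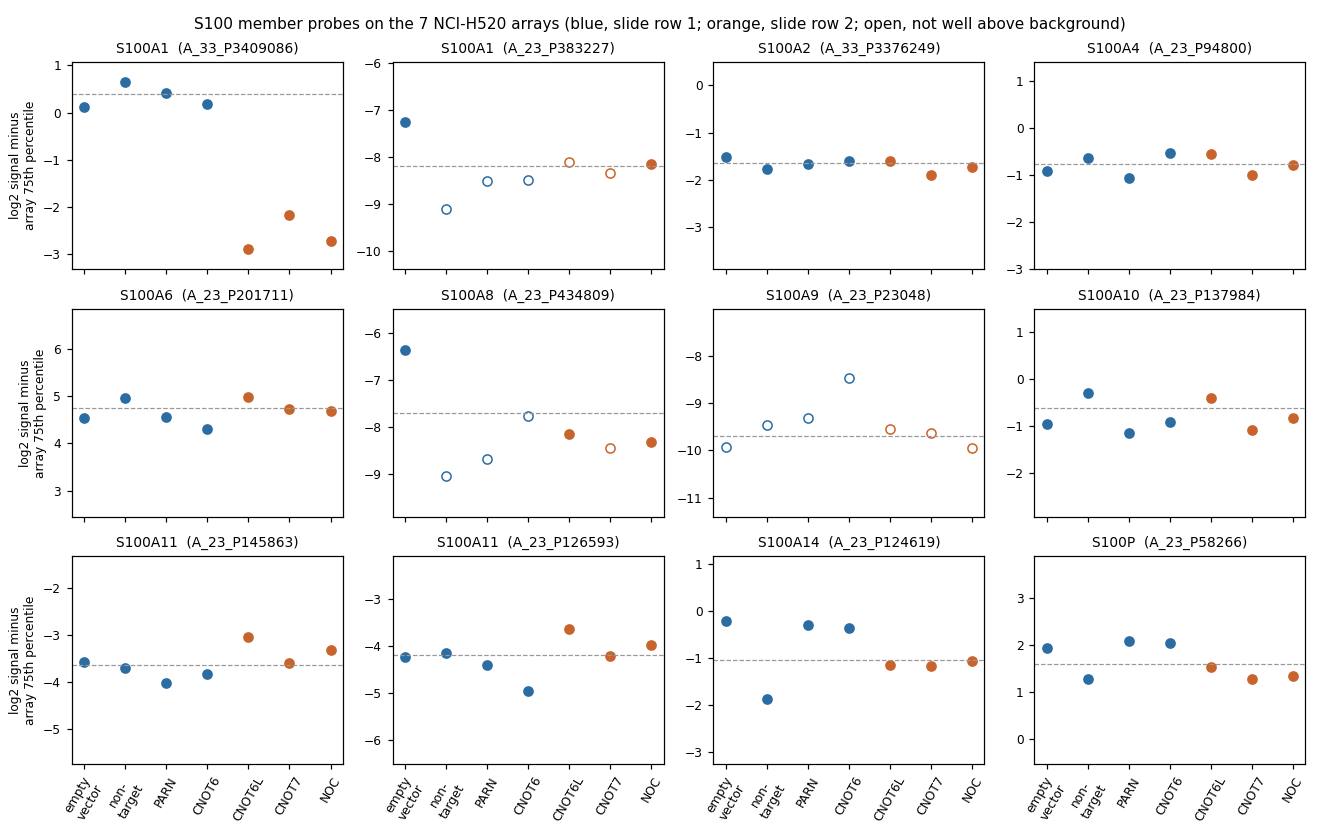
Each panel is 1 S100 member probe, with the log2 signal minus the 75th percentile of the array on the vertical axis, over the same span in every panel, and the 7 arrays on the horizontal axis. Blue points are arrays of slide row 1 and orange points arrays of slide row 2, open points were not well above background, and the dashed line is the mean of both control arrays. The brighter S100A1 probe sat between 0.12 and 0.65 on the row 1 arrays and between -2.90 and -2.17 on the row 2 arrays.

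S100A1, which acts on the ryanodine receptor and the SERCA calcium pump of muscle and heart, had 2 probes, both matched to NM_006271. The brighter probe (A_33_P3409086, printed on 1 spot) read 0.12 with the empty vector, 0.65 with the non-target shRNA, 0.41 with PARN shRNA, 0.19 with CNOT6 shRNA, -2.90 with CNOT6L shRNA, -2.17 with CNOT7 shRNA and -2.73 with NOC shRNA. The 3 arrays of slide row 2 were thus low, and the PARN and CNOT6 arrays lay between both controls. Against the empty vector and the non-target array in turn, the log2 difference was -3.02 and -3.55 with CNOT6L shRNA, -2.29 and -2.81 with CNOT7 shRNA and -2.85 and -3.38 with NOC shRNA. The signal was 10.3%, 17.1% and 11.5% of the mean of both controls in the same order. These are the values that chose the family. The controls themselves differed by -0.52 on this probe, empty vector minus non-target.

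Measured against the other arrays of its own slide row, S100A1 was not called with any shRNA. For the CNOT6L, CNOT7 and NOC arrays this comparison could not have shown a decrease that they share. The family was chosen because S100A1 was low on all of them, so the lack of a call there says nothing about that decrease. The CNOT6L array was 0.45 below the mean of the CNOT7 and NOC arrays (log2 difference -0.45), the NOC array 0.20 below the mean of the CNOT6L and CNOT7 arrays (-0.20), and the CNOT7 array 0.65 above the mean of the CNOT6L and NOC arrays. In row 1, where the controls lie, S100A1 differed from the mean of both controls by 0.02 with PARN shRNA and -0.19 with CNOT6 shRNA.

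The other S100A1 probe (A_23_P383227, printed on 2 spots) was near background. It read -7.26 with the empty vector, -9.11 with the non-target shRNA, -8.51 with PARN shRNA, -8.49 with CNOT6 shRNA, -8.10 with CNOT6L shRNA, -8.34 with CNOT7 shRNA and -8.15 with NOC shRNA, and was above background on the empty vector and NOC arrays. Its row 2 values lay within the span of its row 1 values. The spots of this probe on 1 array differed by 0.21 to 2.04 on the log2 scale. The decrease therefore rested on 1 spot of 1 probe per array. The dim probe was not well above background on 3 of the 4 arrays of row 1, so it could not have shown a decrease from them and does not bear on it. Neither probe's sequence was used here, so which part of the transcript each one reads was not tested.

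**Figure D2:**
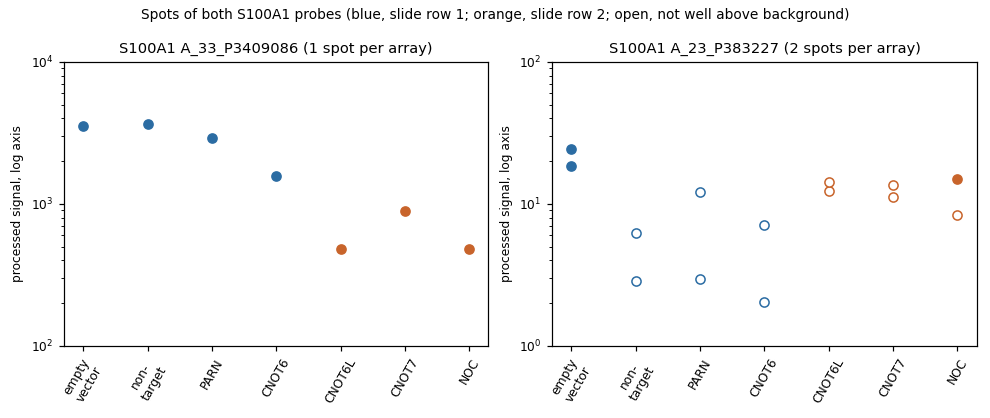
The processed signal of every spot of both S100A1 probes is plotted on a log axis for the 7 arrays, with blue for slide row 1, orange for slide row 2 and open points for spots not well above background. The spot of the brighter probe ran from 1561 to 3628 in row 1 and from 482 to 889 in row 2, while the spots of the dim probe stayed between 2.04 and 24.5 with both rows overlapping.

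A decrease on all 3 arrays of row 2 was called for 157 of 42405 probes, 0.370%, and by their mean difference from the controls S100A1 (-2.98) was at place 13 among them, with a median of -1.83. Of the 72 named genes behind these probes, 28 had more than 1 probe, and in 1 of the 28 a second probe was called as well. In 20 of the 28 an uncalled probe of the same gene was above background on all arrays. Without the 2-fold threshold, every row 2 array was below every row 1 array for 16.5% of the probes above background on all arrays and above it for 9.44%. Among the 9 member probes of that kind the brighter S100A1 probe was the one below, and none was above.

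Few probes were called with a single shRNA under the rule of a 2-fold difference from both controls on the same side. Between the controls alone the empty vector was at least 2-fold higher for 16.7% of all probes and lower for 0.674%. Calls lower than both controls covered 0.446% of probes with PARN shRNA, 0.299% with CNOT6 shRNA, 0.736% with CNOT6L shRNA, 0.972% with CNOT7 shRNA and 1.27% with NOC shRNA. Calls higher covered 0.363%, 0.422%, 0.328%, 0.417% and 0.547% in that order. Of the 12 member probes, 0 were called in either direction with PARN or CNOT6 shRNA. With CNOT6L, CNOT7 and NOC shRNA 1 of 12 was called lower, each time the brighter S100A1 probe that the choice of the family had used, and 0 were called higher.

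**Figure D3:**
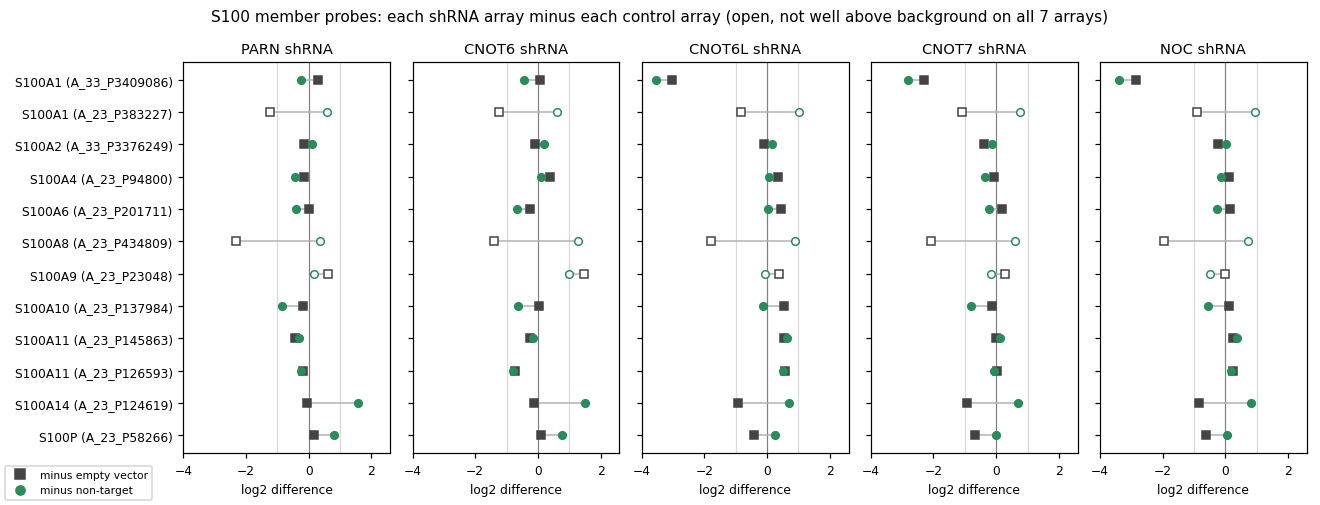
Each panel is 1 shRNA, each line 1 S100 member probe, and the symbols give the log2 difference of the shRNA array from the empty vector (squares) and from the non-target array (circles), with open symbols for probes not above background on all 7 arrays. Pale lines mark 2-fold. The brighter S100A1 probe is past the line on the low side with CNOT6L, CNOT7 and NOC shRNA, and the S100A14 symbols lie apart because the controls differ by 1.64.

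S100A14 differed more than 2-fold between the control arrays, and S100P less, in the same direction. Their difference, empty vector minus non-target, was 1.64 for S100A14 and 0.66 for S100P, and that of S100A10 was as large as that of S100P in the opposite direction (-0.67). S100A14, a member of epithelia that binds calcium only weakly, read -0.22 with the empty vector, -1.86 with the non-target shRNA, -0.29 with PARN shRNA, -0.36 with CNOT6 shRNA, -1.15 with CNOT6L shRNA, -1.16 with CNOT7 shRNA and -1.05 with NOC shRNA. The empty vector, PARN and CNOT6 arrays were high, the non-target array was the lowest, and the row 2 arrays lay between them within 0.11 of each other. The PARN array was 1.57 above the non-target array and 0.07 below the empty vector (-0.07), and the CNOT6 array 1.50 above and 0.14 below (-0.14). The CNOT6L, CNOT7 and NOC arrays were 0.71, 0.70 and 0.81 above the non-target array and differed from the empty vector by -0.93, -0.94 and -0.83. The direction of an S100A14 change thus depended on the control chosen, and the probe was printed on 1 spot.

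S100P, which binds the membrane linker ezrin and, outside cells, AGER, followed a like order. It read 1.94 with the empty vector, 1.27 with the non-target shRNA, 2.09 with PARN shRNA, 2.03 with CNOT6 shRNA, 1.53 with CNOT6L shRNA, 1.27 with CNOT7 shRNA and 1.33 with NOC shRNA. The empty vector, PARN and CNOT6 arrays were again the highest. The non-target, CNOT7 and NOC arrays lay within 0.06 of each other. With 1 array per group, none of these differences can be set against a spread between cultures.

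For the probes above background on all arrays the empty vector was at least 2-fold above the non-target array for 10.9% and at least 2-fold below it for 0.535%. Of the 9 member probes, 1 was above (S100A14) and 0 were below. With dim probes counted as bounds the shares were 16.7% and 0.674% of all probes. Of the 12 member probes, 3 (S100A14, S100A8 and the dim S100A1 probe) were above and 0 below. With normexp background correction the difference was 1.49 for S100A14, but 0.09 for S100A8 and -0.05 for the dim S100A1 probe. The summed signal of 5 myeloid markers was also lowest on the non-target array, at 8.05 times the 75th percentile against 14.2 to 15.7 on the others. CD14 made up most of this sum, at 2.91 to 3.85 on the log2 scale, with ITGAM next at no more than 0.22. PTPRC and CSF3R were not lowest on the non-target array, since their brightest probes differed from it by -0.03 and -0.07 with PARN shRNA. What part the difference between the controls has in the S100A14 and S100P values was not tested.

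S100A8 and S100A9, the subunits of calprotectin, which myeloid cells and stressed keratinocytes release, were at or near background. S100A8 was above background on 3 arrays. It read -6.36 on the empty vector array, -8.15 with CNOT6L shRNA and -8.32 with NOC shRNA, where it was above background, and between -9.04 (non-target) and -7.77 (CNOT6 shRNA) on the other four. The empty vector array stood highest, 6.40-fold above the non-target array, where the probe was not well above background. This log2 difference of 2.68 depended on the processing. It was 2.66 with the series table and 3.17 without scaling, but 1.44 with quantile normalization and 0.09 with normexp background correction. In the main setting no shRNA array was above the empty vector. With normexp the CNOT6 array was 0.72 above the mean of both controls. The spots of the S100A8 probe differed by up to 1.75 on the log2 scale on 1 array. S100A9 stayed near background on all 7 arrays, so no fold change is given for it.

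S100A2, S100A4 and S100A6 varied least of the members on the arrays. S100A2, a nuclear member of basal epithelial cells and a known target of p53, ran from -1.90 (CNOT7 shRNA) to -1.51 (empty vector), a range of 0.39. S100A4, which binds non-muscle myosin and is linked to cell motility, ran from -1.08 (PARN shRNA) to -0.54 (CNOT6 shRNA), a range of 0.54. S100A6 (calcyclin), the partner of CACYBP, ran from 4.30 (CNOT6 shRNA) to 4.99 (CNOT6L shRNA), a range of 0.69. The largest difference of an shRNA array from a control was -0.39 for S100A2 (CNOT7 shRNA minus empty vector), -0.44 for S100A4 (PARN shRNA minus non-target) and -0.65 for S100A6 (CNOT6 shRNA minus non-target). The controls differed by 0.26, -0.27 and -0.41 in the same order, empty vector minus non-target.

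S100A10 and S100A11, the annexin-binding members, also stayed within 2-fold of both controls with every shRNA. S100A10 (p11) binds annexin A2 and has lost the capacity to bind calcium. It read -0.96 with the empty vector, -0.29 with the non-target shRNA, -1.16 with PARN shRNA, -0.93 with CNOT6 shRNA, -0.42 with CNOT6L shRNA, -1.08 with CNOT7 shRNA and -0.84 with NOC shRNA. The non-target and CNOT6L arrays were the high ones. The controls differed by -0.67, empty vector minus non-target.

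S100A11, a partner of annexin A1, had 2 probes that are both matched to NM_005620. The one printed on 1 spot (A_23_P145863) ran from -4.02 (PARN shRNA) to -3.04 (CNOT6L shRNA), and the one printed on 2 spots (A_23_P126593) from -4.95 (CNOT6 shRNA) to -3.64 (CNOT6L shRNA). Both were highest with CNOT6L shRNA, at 0.59 and 0.55 above the mean of both controls. They differed in the CNOT6 array, which was -0.20 from the control mean on the first probe and -0.76 on the other. RefSeq lists pseudogenes of S100A11, and whether the probes also read those was not tested, so the S100A11 values are uncertain.

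Two-sided limma fits over all probes above background on at least 2 arrays called none of the members that were not used to choose the family. Of the 12 member probes 11 could be tested, all but that of S100A9. With the 5 shRNA arrays set against both control arrays, limma called 0 of 38091 probes (0%) at an adjusted p of 0.05, where the adjusted p went down to 0.524 and 1406 probes had an unadjusted p under 0.05. The 9 tested probes of members other than S100A1 had differences from -0.57 to 0.24 with standard errors from 0.15 to 0.68, and 0 of them had an unadjusted p under 0.05. Over all probes limma called 54 without the empty vector, 10 without the non-target array and 13 without scaling, and 0 of the 9 in each of these.

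With the 3 arrays of slide row 2 set against both controls, limma called 98 of 37987 probes, 0.258%. This count rested on single arrays, with 0 calls when any of the CNOT6L, CNOT7 and NOC arrays was left out and 5916 (15.8%) or 6123 (16.1%) when the empty vector or the non-target array was. It was also 0 with the series table and 1444 with normexp background correction. Of the same 9 probes 0 were called, at differences from -0.60 (S100A8, SE 0.84) to 0.32 (S100A11, SE 0.20) and limma adjusted p from 0.449 to 0.986, and 0 had an unadjusted p under 0.05. The S100A14 difference was -0.08 with an SE of 0.42. With the non-target array as the only control it was 0.74 (SE 0.14, limma adjusted p = 0.011), and with the empty vector as the only control -0.90 (SE 0.14, limma adjusted p = 0.0066). Leaving out the non-target array, limma also called S100P (-0.56) and S100A8 (-1.94). The S100A8 probe was above background on 3 of the 7 arrays. Its excess on the empty vector over the non-target array, 2.68, was 0.09 with normexp. These member calls stand beside the 15.8% and 16.1% of all probes called in the same fits. These fits treat arrays of different shRNAs as replicates, assume that the lone control varies like them, and cannot separate slide row from shRNA. For the brighter S100A1 probe the difference was -2.98, given only as a description because the low values on these arrays chose the family.

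Among the other S100 genes, 10 had a probe (11 probes), of which 7 probes were above background on all arrays, and 1 probe was called with any shRNA. This was S100A7A, a koebnerisin gene of keratinocytes, which read -7.60 with CNOT6L shRNA, the only array on which it was above background, and was at least 1.26 (log2) above the empty vector and at least 1.86 above the non-target array. S100A13, whose gene spans that of S100A1 on the opposite strand in RefSeq, did not share the S100A1 pattern. It read between 2.07 (non-target) and 2.44 (CNOT6L shRNA). S100A16, which lies next to S100A14 in RefSeq, had the widest range of the others above background on all arrays, 1.99, from -6.11 on the non-target array to -4.12 with CNOT7 shRNA, and its empty vector value was -4.94. S100A3 and S100A5 were both highest with CNOT6L shRNA, at -1.98 and 1.52.

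The fused S100 genes, whose long proteins (filaggrin, trichohyalin and others) carry an S100 domain and form the cornified layer of skin, had 11 probes for 7 genes, 4 of them above background on all arrays. The 1 call was TCHH, lower with CNOT6 shRNA, where it was not well above background, with log2 differences of -1.74 from the empty vector and -1.68 from the non-target array as bounds. The other TCHH probe, above background on all arrays, read -4.36 there, within its span of -4.68 to -3.93. Of 35 probes for 31 cornified envelope precursor genes of the same complex, 1 was called. LCE2A, a late cornified envelope gene, was higher with CNOT7 and NOC shRNA, at -4.32 and -4.47 against -5.67 with the empty vector and -7.22 with the non-target shRNA. The CNOT6L array read -4.88 and the CNOT6 array -5.14.

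Of 33 probes for 21 binding partners and receptors of S100 proteins (annexins, AHNAK, CACYBP, EZR, AGER, TLR4, MYH9, ion channels and others), 1 was called with any shRNA. It belonged to RYR2, the cardiac ryanodine receptor that S100A1 binds, at -3.87 with PARN shRNA, at least 3.43 (log2) above the empty vector and at least 5.71 above the non-target array. This probe was printed on 1 spot and was above background on 3 arrays. The other RYR2 probe read -6.38 with PARN shRNA and -6.52 on the empty vector array. The median difference from the control mean over the 27 partner probes above background on all arrays lay between -0.08 and 0.10 over the 5 shRNAs, and that of all such probes between -0.08 and 0.11.

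The probes most like the brighter S100A1 probe were sought among 2537 probes above background on at least 4 arrays and with a range of at least 2 on the log2 scale. Likeness was Pearson's r over the 7 arrays, which share the slide and its rows, and is given as a description. The 10 named genes with the highest r, from 0.988 to 0.995, were TMEM164, AFAP1L1, MESTIT1, CPLANE1, KLK4, RDH16, ABI3BP, GLDN, CMAHP and GUCA1B. KLK4 is a kallikrein protease, RDH16 a retinol dehydrogenase and GUCA1B a calcium-binding activator of guanylate cyclase with EF hands. No probe of another S100 gene passed these limits of background and range, so none could be among them. In all 10 the mean of row 2 was below that of row 1, by -1.71 (TMEM164) to -2.93 (CMAHP), against -2.94 for S100A1. This direction follows from the choice by likeness to a probe that was low in row 2, so it is no separate result. Their probes were printed on 1 spot in 8 cases and on 2 spots in the others. Of these genes 6 had a further probe, and in 0 of the 6 did it reach the range and background limits. In all, 52 probes had an r of at least 0.95 with S100A1.

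**Figure D4:**
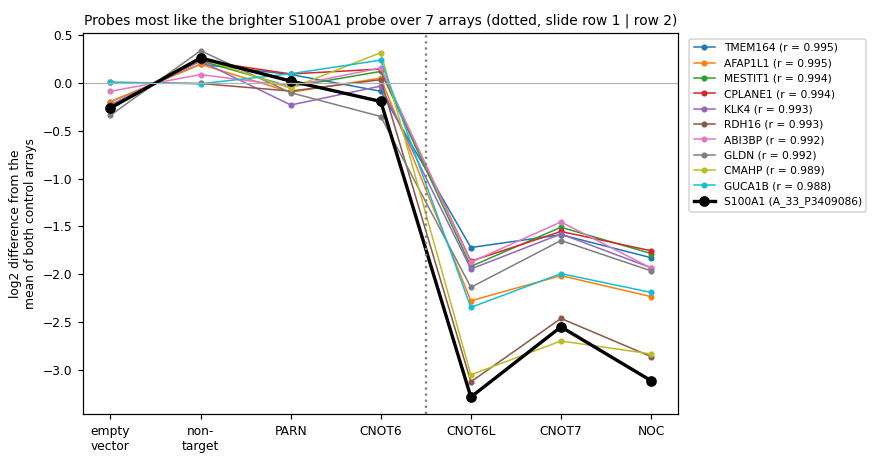
The brighter S100A1 probe (thick black line) and the 10 named probes with the highest Pearson r to it are drawn over the 7 arrays as log2 differences from the mean of both control arrays. The dotted line divides slide row 1 from slide row 2. All 11 lines stay near 0 in row 1 and fall together in row 2, S100A1 to -3.29 with CNOT6L shRNA, -2.55 with CNOT7 shRNA and -3.11 with NOC shRNA. The 10 probes were picked by likeness to S100A1, so their fall in row 2 follows from the choice.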

How the data were processed

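Total RNA of NCI-H520 cells was hybridised to 7 single-colour Agilent 60K arrays, 1 per group, grouped by the sample titles. Per the file headers, the authors deposited spot intensity from Agilent Feature Extraction 10.7.3.1. The deposited series table holds log2 values, which matched the scanner files after 1 shift per array and centring of each probe on its median; it served as an alternative.

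Control spots and software-marked outlier spots were left out and spots of a probe averaged. Each array was scaled to its 75th percentile of processed signal over gene probes, so changes spread over most genes are removed. Where the dim side of a comparison was not well above background, its own value or the array's lowest value above background, whichever was higher, stood in for it, which gives a bound. Symbols came from RefSeq accessions (GRCh38.p14, 24826 probes named). Listed members, gene lists and tests were chosen with earlier results of these data known. Named genes were all members, other S100 genes, listed genes called with any shRNA, and the 10 most like S100A1.

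For a single shRNA there was no test. Grouped arrays were fitted with limma 3.58.1 in R 4.3.3 (lmFit, eBayes with trend, Benjamini-Hochberg), checked on simulated data. The number of arrays limits the precision, and p-values measure only the spread between these arrays. Alternatives were quantile normalization, no scaling, normexp with an offset of 50, the series table, outlier spots kept, a 4-fold threshold, no filter on dim probes, all probes, slide row as a term, arrays of slide row 2 as comparison and leaving out single arrays.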

Additional observations from a re-analysis of the deposited data

How the results depend on the processing

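No paired analysis was possible because each group held 1 array and every array carries the same replicate number. Without scaling, the median probe moved by -0.76 (CNOT6 shRNA) to 0.78 (CNOT7 shRNA) relative to the non-target array. The S100A1 difference from the control mean was then -1.20 with CNOT6 shRNA, -2.89 with CNOT6L shRNA and -2.01 with CNOT7 shRNA, and 4 member probes were called lower with CNOT6 shRNA in place of 0. Without the filter on dim probes 1 was called higher with CNOT6 shRNA. Against the other arrays of slide row 2, 0 member probes were called lower with CNOT6L, CNOT7 or NOC shRNA. The S100A1 difference was then -0.45, 0.65 and -0.20 in that order. This changes the reference to arrays that were low as well, so it could not show a decrease shared by all of them. Against the controls the CNOT7 difference stayed between -2.81 (without the empty vector) and -2.01 (without scaling). The cause of these changes was not tested. Leaving out the empty vector or the non-target array gave 0 to 2 lower calls with PARN and with CNOT6 shRNA, 1 to 2 with CNOT6L and with NOC shRNA and 1 to 3 with CNOT7 shRNA, and 0 to 1 higher calls with PARN and with CNOT6 shRNA. Over all probes, limma called 318 with quantile normalization, 79 without scaling and 44 with all gene probes in the row 2 fit, against 98. In the limma fit of the row 2 arrays, leaving out each array gave 0 to 3 calls among members other than S100A1, with 3 when the non-target array and 1 when the empty vector was left out. Quantile normalization, normexp, the series table and kept outlier spots left the counts of member calls with the shRNAs unchanged. Under them the S100A1 differences did not change beyond the spread between the controls. The S100A8 difference between the controls, 2.68 in the main setting, fell to 0.09 with normexp. The signal over background limits S100A8, S100A9 and the dim S100A1 probe, for which small changes were not detectable.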

Other observations

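KRT6A, a keratin of activated squamous epithelium, was the 1 listed cell type marker called with any shRNA. It was called higher with CNOT6L shRNA, as were 0.328% of all probes. KRT6A read -0.78 with CNOT6L shRNA, -0.90 with NOC shRNA and -1.40 with CNOT7 shRNA, against -1.84 with the empty vector, -1.92 with the non-target shRNA, -2.38 with PARN shRNA and -1.93 with CNOT6 shRNA. With CNOT6L shRNA it was 1.07 above the empty vector and 1.14 above the non-target array on the log2 scale. Its row 2 arrays were all above those of row 1, as for 9.44% of the probes above background on all arrays. Slide row and shRNA cannot be told apart here. The summed signal of the 8 squamous markers was 24.4 to 30.1 times the 75th percentile on the row 2 arrays. On the row 1 arrays it was 34.8 to 44.2. SOX2 made up most of this sum, at 4.58 to 5.45 on the log2 scale, with KRT6A next at no more than -0.78. The median difference from the control mean over the 5 squamous probes above background on all arrays was mixed. It was -0.10, 0.21, 0.12, -0.13 and -0.21 with PARN, CNOT6, CNOT6L, CNOT7 and NOC shRNA. Of the other-cell markers, 5 of 5 myeloid, 4 of 4 endothelial, 3 of 5 fibroblast and 3 of 4 lung adenocarcinoma genes with a probe were above background on all arrays, and none was called with any shRNA. Since 79.7% of all gene probes were above background on all arrays, these counts do not show that such cells were present. Over the 7 arrays their summed signal, relative to the 75th percentile, ran from 0.127 to 0.245 for the endothelial, 0.167 to 0.209 for the fibroblast and 0.697 to 0.878 for the lung adenocarcinoma list.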
